A study of Mus musculus with 12 samples.

Results

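The genes described here are 35 mouse genes of sterol and fatty acid synthesis, with the regulators of that synthesis and the genes of cholesterol efflux. They were chosen by symbol, and all 35 were found among the 33531 symbols measured. The set holds 7 enzymes of the mevalonate pathway (Acat2, Hmgcs1, Mvk, Pmvk, Mvd, Idi1 and Fdps) and 11 enzymes from squalene to cholesterol (Fdft1, Sqle, Lss, Cyp51, Tm7sf2, Msmo1, Nsdhl, Hsd17b7, Ebp, Sc5d and Dhcr7). It also holds 5 regulators (Srebf1, Srebf2, Scap, Insig1 and Insig2), the sterol carrier Stard4, 3 efflux genes and targets of the liver X receptors (Abca1, Abcg1 and Mylip), and 8 enzymes of fatty acid synthesis (Acly, Acaca, Fasn, Elovl6, Scd1, Scd2, Fads1 and Fads2).

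The RNA came from CMM-tetON-shStat3 cells, a mouse acute myeloid leukaemia line with the inv(16) rearrangement, which carries a hairpin against Stat3 that doxycycline induces, and the control groups carry that hairpin too. Cells marked by GFP and mCherry were injected into the veins of NSG mice, an immunodeficient strain without mature lymphocytes that keeps its own myeloid and erythroid cells, and were sorted from the spleen 1 day after the last treatment. Each of the 4 groups had 3 libraries: PBS, CpG1668 (an unmethylated CpG oligonucleotide, a ligand of TLR9), doxycycline, and CpG1668+doxycycline, here called the combination. Treatment began near 1% leukaemia cells in the blood, and the labels give both 6 daily treatments and 3 treatments on alternate days. The age of the mice is not given in the sources used here, and there was no doxycycline group without the hairpin, so effects of the drug and of the hairpin cannot be told apart. Stat3 itself was not lower with doxycycline: it stood at 17.9, 16.8 and 16.9 RPKM (reads scaled to transcript length and library size) with PBS and at 18.8, 19.1 and 18.8 RPKM in the libraries labelled doxycycline. Directions drawn from the doxycycline and combination libraries below are therefore directions between labelled groups. Whether each library of a group stands for its own mouse is not labelled, and the p-values cover the spread between libraries, which may be technical.

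Cholesterol is built from acetyl-CoA through mevalonate, squalene and lanosterol. When membrane sterol is low, SCAP carries the SREBP proteins, the products of Srebf1 and Srebf2, from the endoplasmic reticulum to the Golgi, where they are cut into active transcription factors, and the INSIG proteins hold this complex back when sterol is plentiful. Oxysterols formed from surplus cholesterol activate the liver X receptors (LXR), which induce the efflux transporters ABCA1 and ABCG1, the ubiquitin ligase MYLIP and Srebf1. Macrophages are known for strong control of both arms.

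Promoter windows, from 250 bases before to 50 bases after an annotated start, were available from RefSeq (GRCm38.p6) for 27 of the 35 members in 35 windows. They were searched on both strands for the letters TCACNCCAC (a form of the sterol regulatory element bound by SREBP), CACGTG (an E-box, which SREBP can also bind), CCAAT (the NF-Y box, whose factor often acts beside SREBP) and GGTCA followed after 4 bases of any kind by GGTCA (a form of the LXR element). Some of these motifs can share letters at their ends, and each was counted by itself. TCACNCCAC was in 1 member window (2.86%, against 1.24% of all 32851 windows), that of Hmgcs1. CACGTG was in 7 windows (20% against 7.15%) of Abca1, Dhcr7, Hsd17b7, Insig1, Sc5d and Scap, and CCAAT was in 22 windows (62.9% against 37.4%) of 21 genes. The LXR letters were in 0 of the 35 member windows and in 0.0457% of all windows. A match is a description of the letters and not of binding, and 4 windows are shown because they hold each of the motifs found and include 2 members, Lss and Mylip, whose RNA changed. Capitals mark the matches, ATTGG being CCAAT on the other strand, and all 4 genes lie on the plus strand at chr13:119690101-119690400 (Hmgcs1), chr5:28071162-28071461 (Insig1), chr10:76531355-76531654 (Lss) and chr13:45389492-45389791 (Mylip).
Hmgcs1: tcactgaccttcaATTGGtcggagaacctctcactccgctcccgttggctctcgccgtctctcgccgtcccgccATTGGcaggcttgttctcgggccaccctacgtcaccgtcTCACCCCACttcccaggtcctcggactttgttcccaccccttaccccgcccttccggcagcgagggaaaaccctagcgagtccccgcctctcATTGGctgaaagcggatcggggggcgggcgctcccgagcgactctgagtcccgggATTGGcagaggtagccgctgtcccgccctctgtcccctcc
Insig1: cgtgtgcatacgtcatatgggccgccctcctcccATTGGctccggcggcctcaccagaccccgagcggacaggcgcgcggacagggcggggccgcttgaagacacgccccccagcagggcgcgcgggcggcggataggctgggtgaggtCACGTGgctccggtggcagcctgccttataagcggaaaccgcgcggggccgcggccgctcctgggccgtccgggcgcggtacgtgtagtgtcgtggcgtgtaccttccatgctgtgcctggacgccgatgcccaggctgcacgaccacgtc
Lss: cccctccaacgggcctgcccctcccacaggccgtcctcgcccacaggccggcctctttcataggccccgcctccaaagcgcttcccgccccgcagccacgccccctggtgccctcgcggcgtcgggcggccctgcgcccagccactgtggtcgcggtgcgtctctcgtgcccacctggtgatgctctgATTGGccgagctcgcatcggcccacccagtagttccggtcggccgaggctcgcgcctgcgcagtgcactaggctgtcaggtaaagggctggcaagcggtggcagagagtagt
Mylip: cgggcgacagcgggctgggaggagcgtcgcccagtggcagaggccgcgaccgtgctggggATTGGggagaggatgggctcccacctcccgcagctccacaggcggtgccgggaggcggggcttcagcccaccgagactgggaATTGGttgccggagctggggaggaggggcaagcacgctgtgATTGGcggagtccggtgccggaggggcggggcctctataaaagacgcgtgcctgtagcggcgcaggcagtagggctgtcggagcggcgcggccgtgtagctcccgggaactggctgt

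The libraries had an estimated depth of 30460000 to 35040000 reads, at which 3 reads on a transcript of 1 kb correspond to 0.086 to 0.098 RPKM, a limit that covers counting error only. Of the 6 leukaemia and progenitor genes, Cbfb (30.3 RPKM), Myb (25.2 RPKM), Gata2 (23.1 RPKM) and Kit (17.6 ± 1.1 RPKM, SD, n = 3) were expressed with PBS. The progenitor and myeloid surface genes Cd34 and Cd33 were near 0 with PBS (0.0404 and 0.111 RPKM) and at 0.395 and 0.952 RPKM with the combination. The 6 genes summed to 94.2 to 100 RPKM with PBS, 92.3 to 95.5 with CpG1668, 97.1 to 107 with doxycycline and 97.4 to 100 with the combination. Sums over several other marker lists differed between groups. The 14 late neutrophil genes summed to 108 to 220 RPKM with PBS, 649 to 846 with CpG1668, 583 to 2320 with doxycycline and 1730 to 4560 with the combination. The 12 monocyte genes summed to 29.4 to 51.5, 156 to 177, 118 to 196 and 327 to 475 RPKM in the same order, and the 12 splenic macrophage genes to 18.3 to 31.7, 27.8 to 40.3, 27.9 to 33.8 and 32.9 to 52.0 RPKM. The 12 erythroid genes summed to 14500 to 19500 RPKM with PBS, 6090 to 10400 with CpG1668, 3200 to 7540 with doxycycline and 3350 to 5960 with the combination. The 6 B cell genes stayed at 1.36 RPKM or less, with Ms4a1 and Pax5 at 0 in all 3 CpG1668 libraries. Proliferation genes ranged only from 438 to 478 RPKM. The part of these markers in the results below was not tested, and in bulk RNA fewer cells of a type and less RNA per cell cannot be told apart.

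All 35 genes gave signal in these cells, from a mean over the 12 libraries of 0.803 RPKM for Tm7sf2 to 72.6 RPKM for Scd2, and most of them varied little. RPKM is scaled to transcript length, so levels of different genes can be set side by side. Scd2, a stearoyl-CoA desaturase that makes monounsaturated fatty acids, was followed by Acly (43.0 RPKM), which makes cytosolic acetyl-CoA from citrate, then Fads2 (25.9 RPKM), Srebf2 (20.4 RPKM) and Fads1 (20.1 RPKM). Neighbouring levels such as those of Srebf2 and Fads1 lay within the spread of the libraries. The ratio of the highest to the lowest of the 12 libraries ran from 1.11 for Acly to 1.73 for Scd1. A mean RPKM of at least 1 was required for testing, which 33 members passed. The other 2 members were Tm7sf2 and Abca1 (0.933 RPKM).

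Against PBS, 1 member changed with CpG1668 (Fads1), 1 with doxycycline (Elovl6) and 4 with the combination (Scd1, Elovl6, Fads1 and Lss), and each of these 6 changes was a fall. A change was called at an adjusted p under 0.05 by limma on log2(RPKM + 1), with Benjamini-Hochberg adjustment over the 12167 genes tested. The share called was 3.03% of the members against 5.88% of all genes with CpG1668, and 3.03% against 5.98% with doxycycline. With the combination it was 12.1% of the members against 15.5% of all genes. Counting falls alone, the members' shares stood beside 2.83% of all genes with CpG1668, 2.04% with doxycycline and 6.4% with the combination. The 1890 genes called with the combination were 1111 higher and 779 lower, and the split turned to 1004 higher and 1059 lower with median-of-ratios scaling and to 994 higher and 1385 lower with quantile normalization. The members' shares were thus below those of all genes for changes in either direction. For falls, the single treatments rest on 1 member each, a share near that of all genes, and both calls were lost with no filter. With the combination the falls were 12.1% of the members beside 6.4% of all genes, and both moved with the scaling. Of the 25 tested synthesis enzymes 4 were called lower, 5 with median-of-ratios scaling and 7 with quantile normalization. The counts over all genes are given above. Whether these shares differ was not tested.

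Libraries of the 2 groups did not overlap for 5 of 33 members with CpG1668 (15.2% against 25.6% of all genes, and against 14.3% counting lower genes alone, since all 5 were lower). With doxycycline they did not overlap for 10 members (30.3% against 25.0%), of which 6 were lower (18.2% against 9.81%) and 4 higher (12.1% against 15.2%). With the combination they did not overlap for 9 members (27.3% against 35.3%), of which 8 were lower (24.2% against 16.6%). Those 8 were Elovl6, Fads1, Fdft1, Hsd17b7, Insig1, Lss, Pmvk and Scd1, and the single member that lay higher was Fasn (3.03% against 18.8%). Estimates below 0 made up 81.8% of the members and 56.5% of all genes with CpG1668, 54.5% and 44.0% with doxycycline, and 72.7% and 49.0% with the combination. The shares of all genes moved with the scaling, to 49.6% (median-of-ratios) and 52.5% (quantile) with doxycycline and to 55.1% and 59.5% with the combination, where the 25 tested synthesis enzymes stayed at 72.0%. With doxycycline those enzymes went from 60.0% to 68.0% (median-of-ratios) and 64.0% (quantile). The members' median log2 changes with CpG1668, doxycycline and the combination were -0.057, -0.015 and -0.081. Over all genes the medians were -0.014, 0.014 and 0.003 (-0.012, -0.006 and -0.029 with quantile normalization). Those of the 25 synthesis enzymes were -0.047, -0.023 and -0.095 (-0.046, -0.039 and -0.11 with quantile normalization). The 3 comparisons share the PBS libraries, so their directions are not independent of one another.

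**Figure D1:**
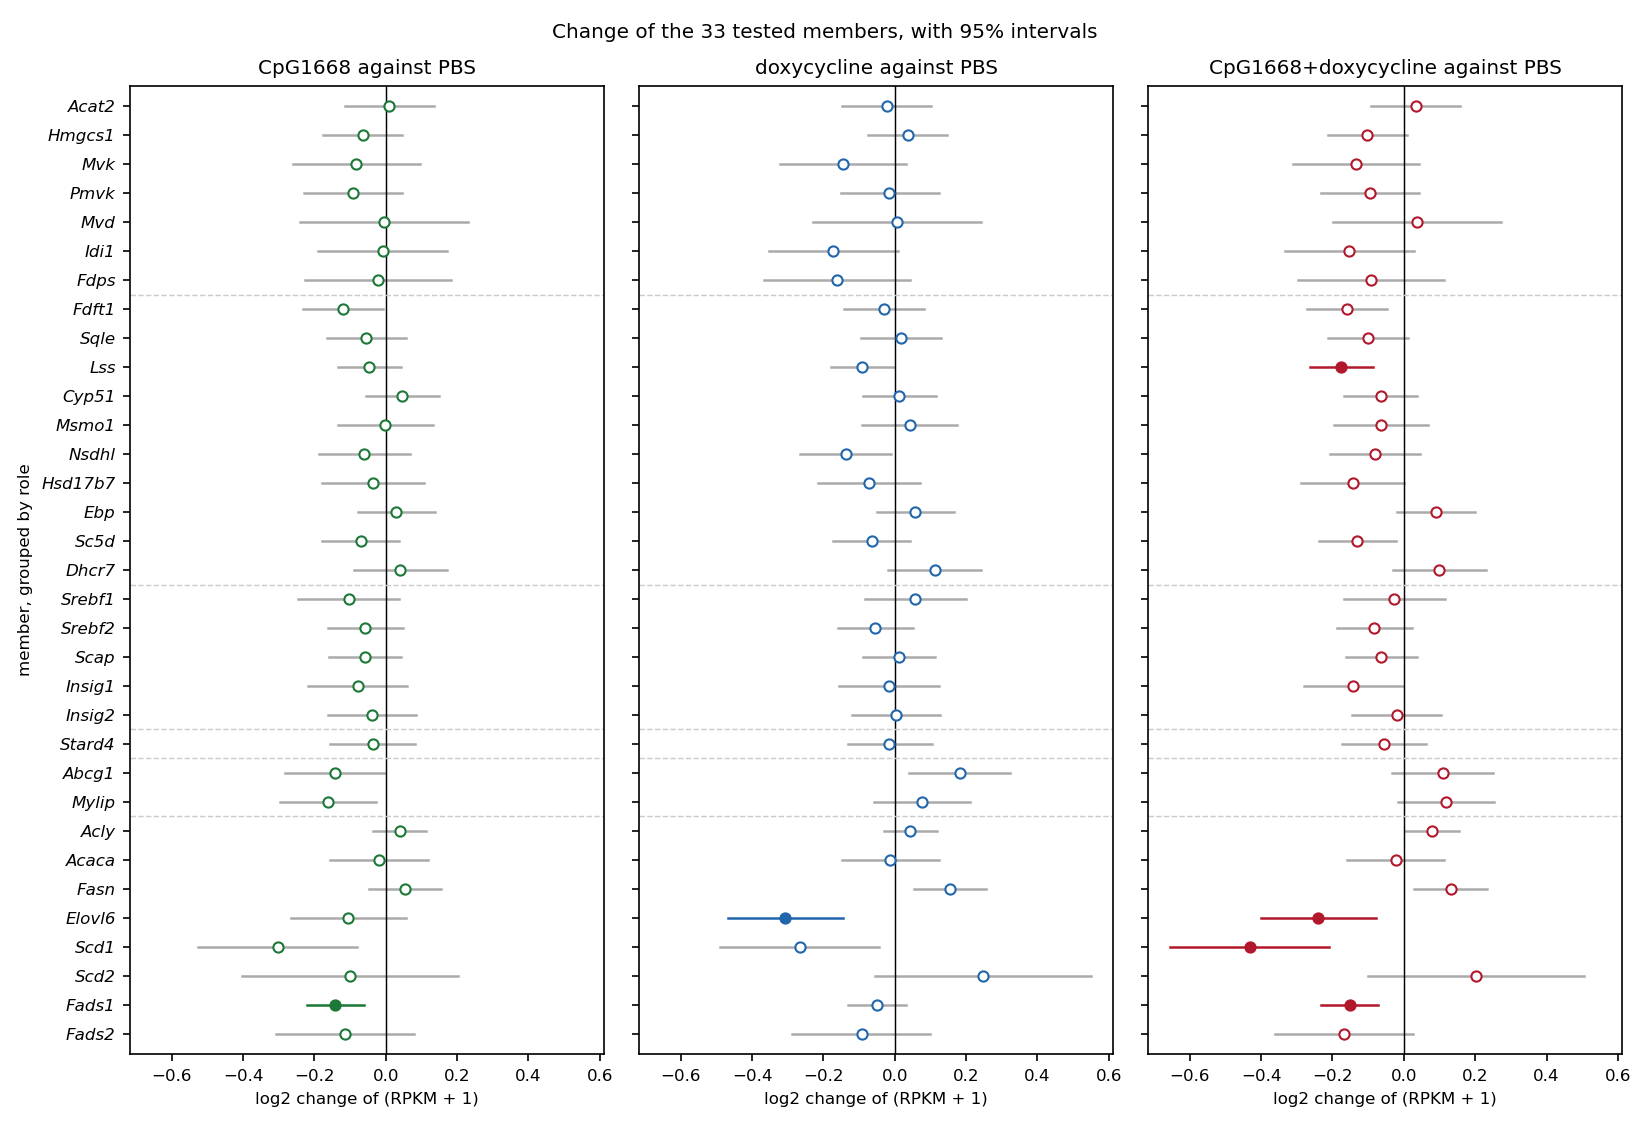
Change of the 33 tested members against PBS on the log2(RPKM + 1) scale (x axis), with the members on the y axis by role, for CpG1668, doxycycline and the combination. Points are limma estimates, bars are 95% intervals and filled points are the called changes: 1, 1 and 4 members, all below 0.

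The combination gave a fall in 3 of the 8 enzymes of fatty acid synthesis, while the other 5 did not pass the test and Scd2, Fasn and Acly had estimates above 0. Scd1 moved furthest. Scd1 (chr19:44394455-44407879, minus strand) encodes a stearoyl-CoA desaturase, and its level was 9.79, 9.8 and 8.28 RPKM with PBS and 6.89, 7.02 and 8.1 RPKM with CpG1668. It was 8.17, 7.45 and 7.03 RPKM with doxycycline and 7.87, 6.45 and 5.66 RPKM with the combination. Each of the 9 treated libraries lay below the lowest PBS library. With the combination it fell by 28.3% of the PBS mean, from 9.29 ± 0.87 to 6.66 ± 1.12 RPKM (SD, n = 3), or -0.43 on the log2(RPKM + 1) scale (95% interval -0.66 to -0.21, limma adjusted p = 0.014). Its estimates with CpG1668 (-0.30, limma adjusted p = 0.11) and doxycycline (-0.27, adjusted p = 0.17) did not pass. Without PBS library 1, PBS library 2 or combination library 3, the limma adjusted p of the combination became 0.052, 0.055 and 0.053.

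Scd2 (chr19:44293674-44306864, plus strand), the close paralog of Scd1 and its neighbour on the chromosome, had estimates of the opposite sign to those of Scd1 with doxycycline and with the combination, and of the same sign with CpG1668, all with a wide spread. It stood at 71.2, 75.8 and 57.0 RPKM with PBS, 54.3, 58.3 and 78.6 with CpG1668, 76.9, 84.6 and 79.8 with doxycycline, and 86.2, 68.5 and 80.0 with the combination. All 3 libraries labelled doxycycline lay above all PBS libraries, whereas the other treated groups overlapped PBS. The log2 change was -0.10 with CpG1668 (95% interval -0.40 to 0.20, limma adjusted p = 0.74, and 0.003 without CpG1668 library 1). It was 0.25 with doxycycline (95% interval -0.06 to 0.55, limma adjusted p = 0.35) and 0.20 with the combination (95% interval -0.10 to 0.51, adjusted p = 0.36). Between CpG1668 and doxycycline it was -0.35 (limma adjusted p = 0.25). How the authors' counting shared reads between the paralogs is not given in the sources used here, so the split of reads between Scd1 and Scd2 is uncertain.

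Elovl6 (chr3:129532355-129638495), which lengthens saturated and monounsaturated fatty acids, fell with doxycycline and with the combination, which overlapped each other (limma adjusted p = 0.80 between them). Its level was 4.23, 3.88 and 4.05 RPKM with PBS, 3.78, 3.83 and 3.48 with CpG1668, 3.29, 3.07 and 2.9 with doxycycline, and 3.83, 3.16 and 2.9 with the combination. No treated library reached the lowest PBS value. It fell by 23.9% with doxycycline, or -0.31 on the log2(RPKM + 1) scale (95% interval -0.47 to -0.15, limma adjusted p = 0.032), and fell by 18.7% with the combination, or -0.24 (95% interval -0.40 to -0.08, adjusted p = 0.047). Both calls are close to the threshold. The doxycycline call was lost with no filter (limma adjusted p = 0.095) and without PBS library 1, 2 or 3 or doxycycline library 2 or 3 (adjusted p = 0.097, 0.066, 0.090, 0.10 and 0.11). The combination call was lost on leaving out each library in turn other than combination library 1 (limma adjusted p = 0.051 to 0.16), with no filter (adjusted p = 0.10) and with only the groups compared (adjusted p = 0.11).

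Fads1 (chr19:10182888-10196877), a desaturase of polyunsaturated fatty acids, fell with CpG1668 and with the combination. It was at 21.7, 21.8 and 20.6 RPKM with PBS and 21.0, 20.8 and 20.01 with doxycycline, but at 19.1, 19.3 and 19.4 with CpG1668 and 19.9, 19.2 and 18.3 with the combination. The CpG1668 and combination libraries all lay below the PBS libraries, and the doxycycline libraries overlapped PBS. It fell by 9.79% with CpG1668 (log2 change -0.14, 95% interval -0.22 to -0.06, limma adjusted p = 0.048) and fell by 10.4% with the combination (log2 change -0.15, 95% interval -0.23 to -0.07, adjusted p = 0.017). The CpG1668 call was kept in 6 of 20 alternatives and was lost without any 1 of PBS library 1 or 2, the 3 CpG1668 libraries, the 3 doxycycline libraries or combination library 2 (limma adjusted p = 0.052 to 0.16). The combination call was lost without PBS library 1 or 2 or combination library 3 (limma adjusted p = 0.056, 0.066 and 0.068) and with only the groups compared (adjusted p = 0.062). The interaction of CpG1668 and doxycycline was not called for Fads1, so the groups were not shown to differ in their response.

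The other 4 fatty acid enzymes, Acly, Acaca, Fasn and Fads2, were called in no comparison. Fasn, the fatty acid synthase, averaged 11.5 ± 0.566 RPKM with PBS, 12.01 ± 0.653 with CpG1668, 12.9 ± 0.285 with doxycycline and 12.7 ± 0.471 with the combination (SD, n = 3). Its log2 change was 0.15 with doxycycline (limma adjusted p = 0.080) and 0.13 with the combination (adjusted p = 0.082), and in both groups all libraries lay above those of PBS. Acly kept to 41.8 ± 1.56, 43.0 ± 0.838, 43.1 ± 0.552 and 44.2 ± 0.982 RPKM. Acaca, which makes malonyl-CoA, had means of 3.55 to 3.62 RPKM, and Fads2 had means of 24.6 to 27.7 RPKM.

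**Figure D2:**
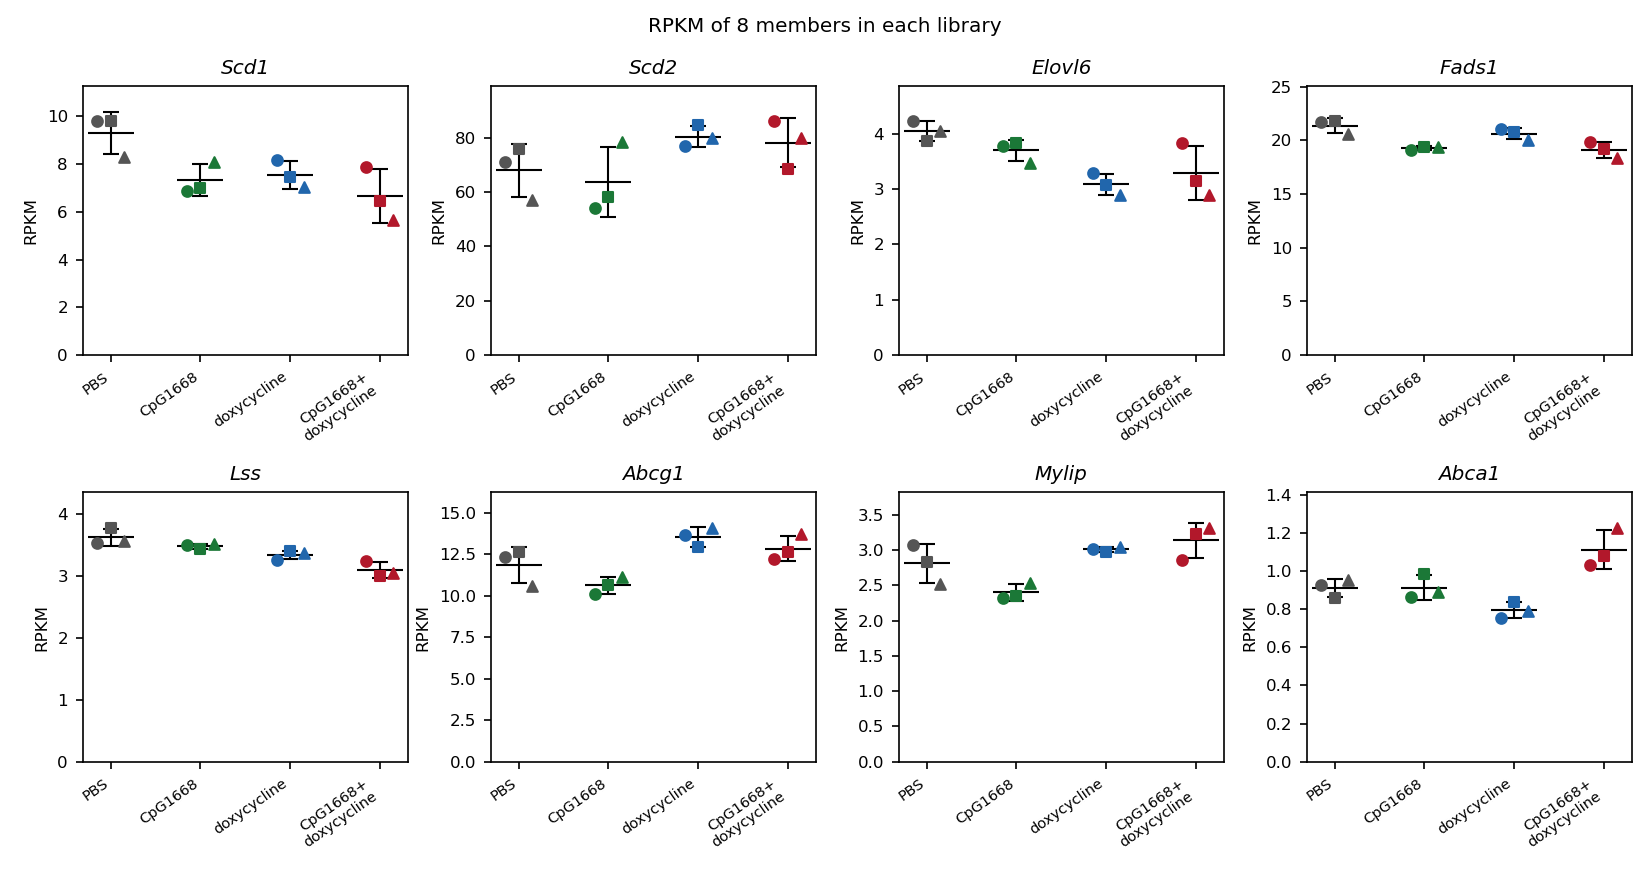
RPKM (y axes, from 0) of 8 members in every library of the 4 groups (x axes). Circles, squares and triangles are libraries 1, 2 and 3, which were not treated as paired between groups. Long bars are means and whiskers are SD (n = 3). Scd1, Elovl6 and Lss with the combination lie below all PBS libraries, and Abca1 with the combination lies above the other 9 libraries.

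Among the 18 enzymes of sterol synthesis, of which 17 were tested, the only called change against PBS was a fall of Lss with the combination. Lss (chr10:76531588-76557138), which closes oxidosqualene into lanosterol, stood at 3.53, 3.78 and 3.57 RPKM with PBS, 3.49, 3.43 and 3.51 with CpG1668, 3.26, 3.4 and 3.37 with doxycycline, and 3.25, 3.01 and 3.04 with the combination. All 9 treated libraries lay below the lowest PBS library, and the combination was lower than each of the other groups. It fell by 14.6%, or -0.18 on the log2(RPKM + 1) scale (95% interval -0.26 to -0.09, limma adjusted p = 0.012), and without PBS library 2 its adjusted p was 0.055. Fitted with the PBS and combination libraries alone, its limma adjusted p was 0.062. Against CpG1668, Lss in the combination was at -0.13 (adjusted p = 0.13).

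Fdft1, squalene synthase, had the highest mean over the 12 libraries of its arm, ahead of Ebp, which was higher than Fdft1 in the combination, and it missed the threshold. It was at 16.1, 16.4 and 15.8 RPKM with PBS, 13.8, 15.5 and 15.0 with CpG1668, 16.4, 15.1 and 15.8 with doxycycline, and 15.2, 13.8 and 13.9 with the combination. Its CpG1668 and combination libraries lay below all PBS libraries. The combination gave a log2 change of -0.16 (95% interval -0.27 to -0.05, limma adjusted p = 0.056), and quantile normalization and median-of-ratios scaling brought it past the threshold (adjusted p = 0.040 and 0.033), as did leaving out CpG1668 library 1 (adjusted p = 0.037) or combination library 1 (adjusted p = 0.032). Fdft1 shares 774 bases (18.3% of its exons) with Ctsb on the opposite strand, which averaged 24.6 RPKM with PBS and 29.7 RPKM with the combination, and whether reads were counted by strand is not given in the sources used here. Sc5d, a sterol desaturase, was at 4.44 ± 0.29 RPKM with PBS and 3.96 ± 0.198 with the combination (log2 change -0.13, limma adjusted p = 0.098, and 0.024 with quantile normalization).

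No mevalonate enzyme passed the test against PBS. Acat2, a thiolase that joins acetyl-CoA units and the most abundant of them, was at 13.2, 13.9 and 13.5 RPKM with PBS, 12.9, 13.9 and 14.3 with CpG1668, 13.9, 13.4 and 12.6 with doxycycline, and 14.9, 12.8 and 14.1 with the combination, so all groups overlapped. Of the 7 mevalonate enzymes 0 were called by limma against PBS in any group, and 0 had an unadjusted p under 0.05 there, which does not show that they kept their level. Hmgcs1, which makes HMG-CoA and whose promoter is shown above, had means of 10.7 ± 0.667, 10.2 ± 0.475, 11.03 ± 0.198 and 9.93 ± 0.514 RPKM (SD, n = 3) with PBS, CpG1668, doxycycline and the combination. Idi1, the isopentenyl isomerase, was at 12.8 ± 0.481 RPKM with PBS and 11.3 ± 0.662 with doxycycline, a log2 change of -0.17 (95% interval -0.35 to 0.01, limma adjusted p = 0.27). Fdps, which condenses isoprenoid units, was at 10.4 ± 0.899 and 9.16 ± 0.18 RPKM in those groups (log2 change -0.16, 95% interval -0.37 to 0.04, adjusted p = 0.37), and for Idi1 and Fdps all doxycycline libraries lay below those of PBS. Mvk, mevalonate kinase, was at 3.77 ± 0.41 and 3.3 ± 0.226 RPKM and overlapped (log2 change -0.15, 95% interval -0.32 to 0.03, limma adjusted p = 0.35). Pmvk and Mvd, the next enzymes of the chain, had group means of 9.01 to 9.69 and 5.58 to 5.78 RPKM.

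The remaining enzymes from squalene to cholesterol, Sqle, Cyp51, Msmo1, Nsdhl, Hsd17b7, Ebp and Dhcr7, were called in none of the comparisons against PBS. Sqle, the squalene epoxidase, had group means of 10.3 to 11.3 RPKM, and Cyp51, which removes a methyl group from lanosterol, 9.43 to 10.3 RPKM. Ebp, a sterol isomerase, averaged 14.2 ± 0.384 RPKM with PBS and 15.2 ± 0.776 with the combination (SD, n = 3), and Dhcr7, a late reductase of cholesterol synthesis, 7.53 ± 0.475 and 8.14 ± 0.536 RPKM. Msmo1, Nsdhl and Hsd17b7, which act in the removal of methyl groups from sterols, had group means of 3.95 to 4.33, 9.03 to 10.02 and 2.97 to 3.39 RPKM. Tm7sf2, a sterol reductase, stayed below the filter at 0.801 ± 0.0826 RPKM with PBS and 0.772 ± 0.0391 with the combination, and its exons share 532 bases with Vps51 on the same strand. Over the 17 tested sterol enzymes the log2 changes with the combination ran from -0.18 to 0.10 with a median of -0.10, and 13 were below 0, also 13 with median-of-ratios scaling and with quantile normalization. The median was -0.02 with doxycycline, where 10 were below 0 (-0.04 with 12 below 0 under median-of-ratios scaling, and -0.04 with 11 under quantile normalization), and -0.04 with CpG1668, where 13 were (12 with quantile normalization).

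In several libraries most sterol enzymes deviated from the group mean in 1 direction, furthest in library 1 of CpG1668 and of the combination. In combination library 1, 15 of the 17 tested sterol enzymes were at the highest level of the 3 libraries (88.2%, where 34.8% of all genes were), and their median deviation from the group mean was 0.08 on the log2 scale, against 0.01 over all genes. In CpG1668 library 1, 15 of the 17 were at the lowest level (34.0% of all genes were), with a median deviation of -0.08. In combination library 2, 13 of the 17 were at the lowest level (38.7% of all genes were) and 0 at the highest, with a median of -0.047. CpG1668 library 3 and PBS library 2 each had 10 of the 17 at the highest level (35.4% and 30.9% of all genes were), with medians of 0.05 and 0.029. The doxycycline libraries had medians of -0.004, 0.013 and -0.006. These shifts within groups stand beside median changes against PBS of -0.04 with CpG1668 and -0.10 with the combination. Without combination library 1, the median change of the 25 tested synthesis enzymes with the combination was -0.13 in place of -0.10, 20 in place of 18 were below 0 and 5 in place of 4 were called. Without CpG1668 library 1, the median with CpG1668 was -0.01 in place of -0.05, and 13 in place of 19 enzymes were below 0. The erythroid sum was highest of its group in combination library 1 (5960 RPKM, against 3350 and 4280) and lowest of its group in CpG1668 library 1 (6090 RPKM, against 9090 and 10400). Within these 2 groups the libraries had the same order by erythroid sum as by sterol median. The PBS libraries also did (14500, 19500 and 16100 RPKM beside medians of -0.031, 0.029 and -0.005). The doxycycline libraries did not: library 2 had the lowest erythroid sum (3200 RPKM, against 7540 and 4630) and the highest sterol median. The late neutrophil sum of combination library 1 was 3060 RPKM, between 1730 and 4560 RPKM, and that of CpG1668 library 1 was the lowest of its group (649 RPKM, against 655 and 846). The part of these markers in the shifts was not tested.

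**Figure D3:**
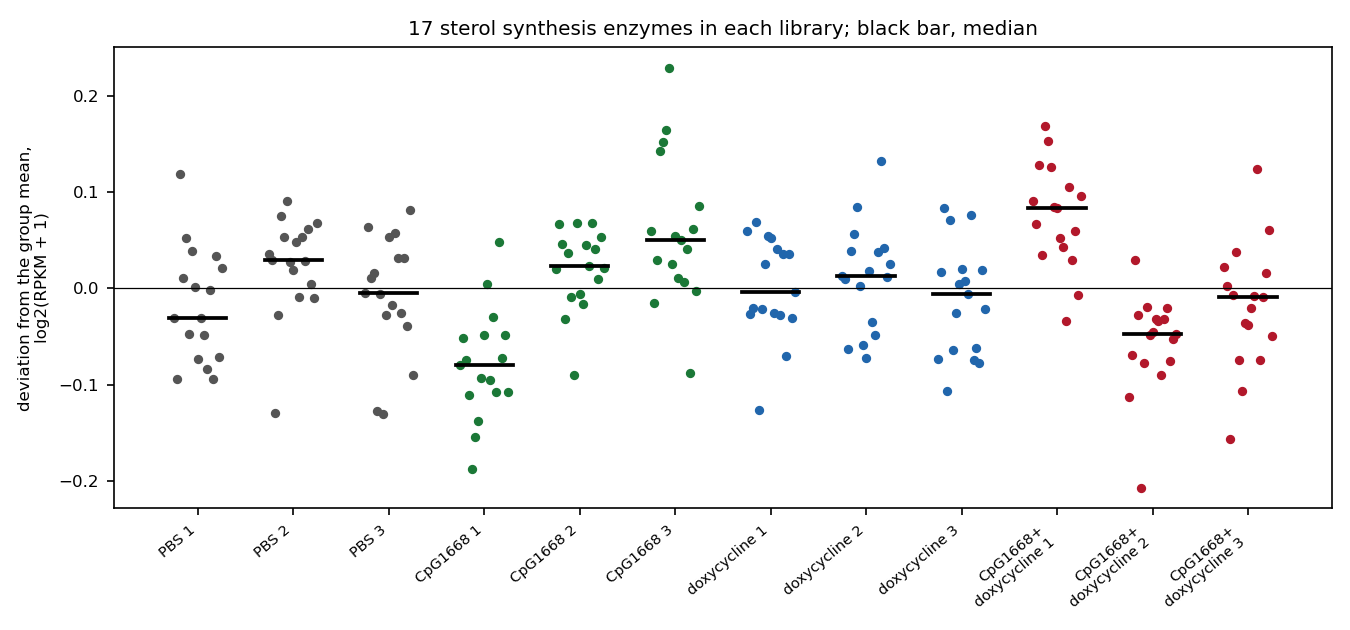
Deviation of each of the 17 tested sterol synthesis enzymes from its group mean, on the log2(RPKM + 1) scale (y axis), in each library (x axis). Dots are enzymes, black bars are medians and sideways scatter has no meaning; the medians of CpG1668 library 1 (-0.08) and combination library 1 (0.08) lie farthest from 0.

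None of the 5 regulators was called in any comparison by limma. Srebf2, which encodes the main SREBP of cholesterol synthesis, was at 21.2, 21.1 and 20.9 RPKM with PBS, 19.2, 21.1 and 20.5 with CpG1668, 19.9, 21.0 and 19.95 with doxycycline, and 21.4, 19.3 and 19.0 with the combination, and the groups overlapped. The combination gave it a log2 change of -0.08 (95% interval -0.19 to 0.02, limma adjusted p = 0.28). Srebf1, which encodes the SREBP forms that favour fatty acid synthesis, was at 15.9, 15.5 and 13.7 RPKM with PBS, 13.2, 14.1 and 14.4 with CpG1668, 15.9, 15.2 and 15.8 with doxycycline, and 16.2, 14.1 and 13.9 with the combination. Its CpG1668 libraries lay below all those labelled doxycycline, with a log2 change of -0.16 that did not pass (limma adjusted p = 0.25). Insig1, itself a target of SREBP and a brake on it, was at 11.4, 12.5 and 12.2 RPKM with PBS, 10.4, 11.1 and 12.7 with CpG1668, 12.3, 11.3 and 12.1 with doxycycline, and 11.2, 10.7 and 10.6 with the combination. All combination libraries were below PBS for Insig1 (log2 change -0.14, 95% interval -0.28 to -0.002, limma adjusted p = 0.16).

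Insig2, the second INSIG gene, was at 2.02, 2.34 and 2.37 RPKM with PBS, 2.08, 2.21 and 2.17 with CpG1668, 2.25, 2.35 and 2.14 with doxycycline, and 2.06, 2.24 and 2.29 with the combination. These values overlapped throughout. Scap, the escort of SREBP, had group means of 13.3 to 14.0 RPKM, and its treated libraries overlapped those of PBS. Stard4, a protein that carries sterol between membranes, was at 10.2, 9.81 and 10.5 RPKM with PBS, 9.83, 9.89 and 9.93 with CpG1668, 10.1, 9.65 and 10.4 with doxycycline, and 10.2, 8.78 and 10.3 with the combination, and it was not called. At the level of RNA, the intervals of the 5 regulators against PBS ran from -0.28 to 0.20 on the log2 scale over the 3 treated groups.

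Abcg1 was lower with CpG1668 than with doxycycline and Mylip was higher with the combination than with CpG1668, while no efflux gene was called against PBS. Abcg1 (chr17:31057675-31117988), which exports cholesterol to high-density lipoprotein, was at 12.3, 12.6 and 10.6 RPKM with PBS, 10.1, 10.6 and 11.1 with CpG1668, 13.6, 12.9 and 14.1 with doxycycline, and 12.2, 12.6 and 13.7 with the combination. Its CpG1668 libraries were all below, and its doxycycline libraries all above, the libraries of the opposite group. With CpG1668 the mean of Abcg1 was 0.784 times that with doxycycline (log2 change -0.32, 95% interval -0.47 to -0.18, limma adjusted p = 0.033), the only member called of 33 (3.03%) in a comparison that called 1.56% of all genes. Leaving out any of the 3 CpG1668 or 3 doxycycline libraries ended this call (limma adjusted p = 0.056 to 0.14), as did quantile normalization (adjusted p = 0.056) and fitting without a filter (adjusted p = 0.10). Against PBS, Abcg1 was at -0.14 with CpG1668 (limma adjusted p = 0.24), 0.18 with doxycycline (adjusted p = 0.14) and 0.11 with the combination (adjusted p = 0.29), and none passed. Against CpG1668 the combination gave 0.25 (limma adjusted p = 0.062, and 0.031 without PBS library 3).

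Mylip (chr13:45389742-45412022), the LXR-induced ubiquitin ligase that marks lipoprotein receptors for breakdown, was at 3.08, 2.83 and 2.52 RPKM with PBS, 2.31, 2.35 and 2.53 with CpG1668, 3.01, 2.97 and 3.04 with doxycycline, and 2.86, 3.23 and 3.32 with the combination. The combination libraries lay above all CpG1668 libraries and overlapped those of the other 2 groups. Mylip was 30.7% higher with the combination than with CpG1668 (log2 change 0.28, 95% interval 0.15 to 0.42, limma adjusted p = 0.030), again the only member called of 33 (3.03%) where 3.26% of all genes were called. The call was lost without CpG1668 library 1 or 2 or combination library 2 or 3 (limma adjusted p = 0.12, 0.11, 0.075 and 0.12), with no filter (adjusted p = 0.070), with quantile normalization (adjusted p = 0.069) and with only the groups compared (adjusted p = 0.073). Against PBS, CpG1668 gave -0.16 (limma adjusted p = 0.16), and against doxycycline CpG1668 gave -0.24 (adjusted p = 0.080).

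Abca1 (chr4:53030787-53159895, minus strand), which loads cholesterol onto lipid-poor apolipoprotein, was expressed below the filter. It was at 0.924, 0.858 and 0.95 RPKM with PBS, 0.865, 0.987 and 0.889 with CpG1668, 0.754, 0.836 and 0.792 with doxycycline, and 1.03, 1.08 and 1.23 with the combination. The 3 combination libraries were above the other 9, and the doxycycline libraries were below all PBS and CpG1668 libraries. Fitted with no filter, the combination was at 0.14 against PBS (95% interval 0.03 to 0.26, limma adjusted p = 0.15), 0.14 against CpG1668 (adjusted p = 0.30) and 0.24 against doxycycline (95% interval 0.12 to 0.35, adjusted p = 0.060), none of which passed. The pseudocount of 1 is as large as the level itself, so these log2 values understate the ratio of the RPKM.

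The gap between the synthesis mean and the efflux mean was smallest in the combination, with a wide spread. The mean log2(RPKM + 1) of the 26 synthesis enzymes was 3.35 ± 0.026 with PBS, 3.30 ± 0.069 with CpG1668, 3.31 ± 0.020 with doxycycline and 3.28 ± 0.074 with the combination (SD, n = 3). The mean of Abca1 and Abcg1 was 2.31 ± 0.049, 2.24 ± 0.045, 2.35 ± 0.023 and 2.43 ± 0.074 in the same order. Synthesis minus efflux was thus 1.04 ± 0.026 with PBS, 1.07 ± 0.038 with CpG1668, 0.96 ± 0.043 with doxycycline and 0.85 ± 0.132 with the combination, and it is given as a description without a test. Every doxycycline and combination library was below every PBS library on this measure, and the combination libraries were at 0.99, 0.81 and 0.73. With doxycycline the 2 efflux genes went opposite ways, Abcg1 lying above and Abca1 below all PBS libraries. The difference from PBS was -0.20 with the combination, of which -0.07 came from synthesis and 0.13 from efflux, and it ran from -0.27 to -0.14 when single libraries were left out.

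**Figure D4:**
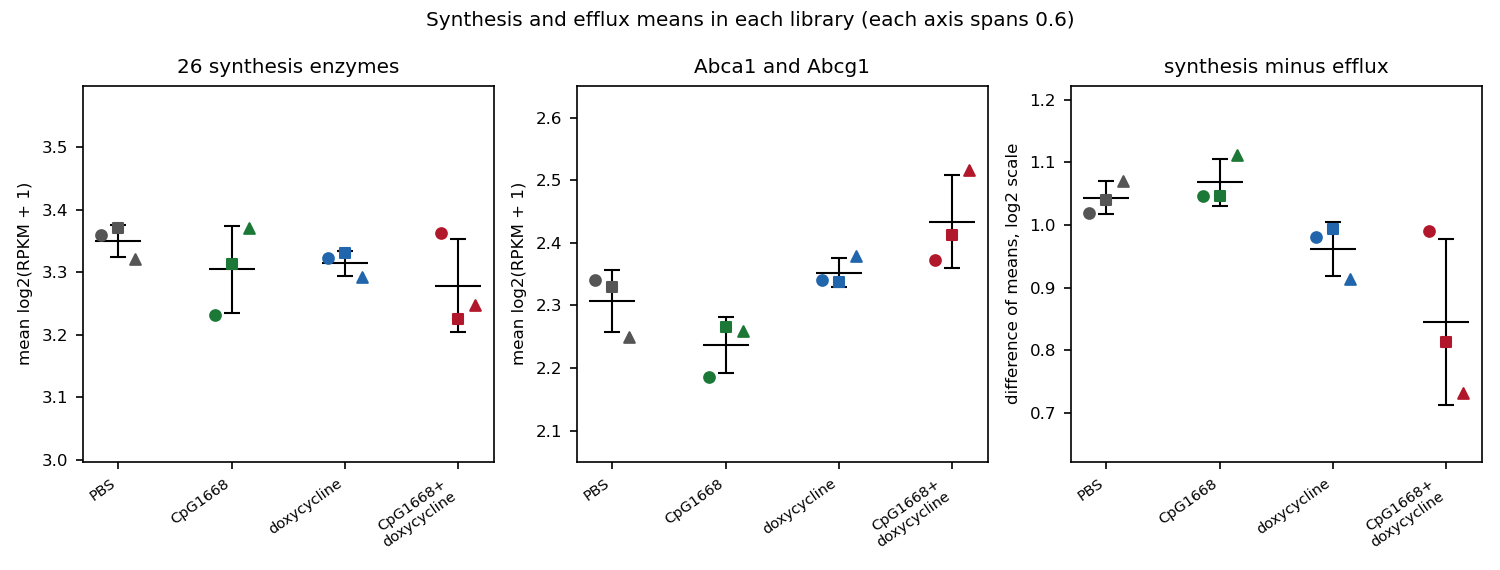
Mean log2(RPKM + 1) of the 26 synthesis enzymes, of Abca1 and Abcg1, and the difference of these means (y axes, not from 0, each spanning the same width) in every library of the 4 groups (x axes). Circles, squares and triangles are libraries 1, 2 and 3, long bars are means and whiskers are SD (n = 3); the difference is 1.04 with PBS and 0.85 with the combination.

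The combination was called different from doxycycline alone for 0 of 33 members by limma, 4 of which had an unadjusted p under 0.05, in a comparison that called 3.48% of all genes. Fads1 (-0.10, limma adjusted p = 0.22), Fdft1 (-0.13, adjusted p = 0.26) and Hmgcs1 (-0.14, adjusted p = 0.22) were among those 4. The interaction of CpG1668 and doxycycline, which asks whether the combination departs from the sum of its parts, was called for 0.0% of all genes, with 6.67% (812 genes) at an unadjusted p under 0.05. Among the 33 members 1 had such a p, Mylip, with an interaction of 0.21 (limma adjusted p = 0.73). Abca1, fitted with no filter, had an interaction of 0.23 (95% interval 0.07 to 0.40, limma adjusted p = 0.73). The members were thus not shown to respond to the combination other than as the sum of the single treatments.

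Outside the members, Soat1, Lipa, Smpdl3a and G6pdx, of sterol handling, LXR response or NADPH supply, rose with the combination. Soat2, Rnf139, Ggps1 and Lpcat3 fell with it. Such genes were counted in 4 further lists. Of 20 tested genes of SREBP processing and sterol handling (21 listed), 10 were called with the combination against PBS. Of these 7 rose, Lrp1 among them, and 3 fell, where 15.5% of all genes were called and 6.4% were called lower. Lrp1, an endocytic lipoprotein receptor of macrophages, had the largest log2 change, 1.33 with the combination. It was at 0.331 ± 0.123 RPKM with PBS, 1.35 ± 0.0748 with CpG1668, 1.01 ± 0.15 with doxycycline and 2.35 ± 0.0972 with the combination (SD, n = 3). Lrp1 passed the filter only through the combination (0.898 RPKM over the other 3 groups). It therefore had to differ there, adds no support to the count and is given without a p-value. Soat1, which esterifies cholesterol for storage in macrophages, rose from 2.61 ± 0.0895 to 4.61 ± 0.641 RPKM (log2 change 0.63, limma adjusted p = 0.00033). Lipa, the lysosomal lipase that frees cholesterol from its esters, rose from 1.53 ± 0.195 to 2.99 ± 0.265 RPKM (log2 change 0.66, limma adjusted p = 6e-05). Soat2, the paralog of Soat1, fell from 8.02 to 6.74 RPKM (log2 change -0.22, limma adjusted p = 0.013), so the paralogs went opposite ways. Rnf139, a sterol-sensing ubiquitin ligase, fell from 10.1 to 8.35 RPKM (log2 change -0.24, limma adjusted p = 0.0056), and Ggps1, which makes geranylgeranyl diphosphate, fell from 7.84 to 7.2 RPKM (adjusted p = 0.04).

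The other 4 that rose in that list were Npc2, a lysosomal cholesterol carrier (23.6 to 26.1 RPKM, limma adjusted p = 0.024), Stard3 (5.73 to 6.58 RPKM, adjusted p = 0.044), Syvn1, a ubiquitin ligase of the endoplasmic reticulum (6.6 to 8.03 RPKM, adjusted p = 0.043), and Tspo (31.6 to 38.9 RPKM, adjusted p = 0.0062). The calls of Ggps1, Stard3 and Syvn1 were each lost in more than 10 of their 20 alternatives. With either single treatment, where 5.88% (CpG1668) and 5.98% (doxycycline) of all genes were called, 4 genes of this list were called, 3 higher and 1 lower: Lrp1, Soat1, Lipa and Rnf139 with CpG1668, and Lrp1, Soat1, Syvn1 and Rnf139 with doxycycline. Of these, Soat1 with CpG1668 was kept in 8 of 19 alternatives and Rnf139 with doxycycline in 5 of 20. Lrp1, Soat1 and Lipa are also expressed by monocytes and macrophages, and the monocyte sums given above were higher in all 9 treated libraries than in the PBS libraries. Their part in these rises was not tested.

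Of 7 tested LXR receptors and further targets (9 listed), 3 rose and 1 fell with the combination. That was 57.1% of the list, where 15.5% of all genes were called, and the 3 include Rxra, which is set apart below. Smpdl3a, a phosphodiesterase induced by LXR, was at 13.1 ± 0.488 RPKM with PBS, 15.4 ± 0.477 with CpG1668, 15.1 ± 0.426 with doxycycline and 20.01 ± 1.02 with the combination (SD, n = 3). Its log2 change was 0.57 (limma adjusted p = 5e-06), and the combination was also above each single treatment (limma adjusted p = 0.0033 against CpG1668 and 0.00056 against doxycycline). Rxra, the partner receptor of LXR, was at 0.678 RPKM with PBS and 1.59 RPKM with the combination (log2 change 0.63). Abca2 rose from 2.0 to 2.97 RPKM (limma adjusted p = 0.01). Rxra too passed the filter only through the combination (0.968 RPKM over the other 3 groups), so it adds no support to the count and is given without a p-value. Lpcat3, a phospholipid acyltransferase and LXR target, fell from 65.9 to 58.8 RPKM (log2 change -0.16, limma adjusted p = 0.011). With the single treatments, Smpdl3a rose and Lpcat3 fell with CpG1668, and Smpdl3a and Rxra rose with doxycycline. Each was 28.6% of the list, where 5.88% (CpG1668) and 5.98% (doxycycline) of all genes were called. The fall of Lpcat3 with CpG1668 was kept in 9 of 20 alternatives and the rise of Smpdl3a with doxycycline in 10 of 20.

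Of 21 tested genes of fatty acid activation, elongation, NADPH supply and storage (25 listed), 7 rose and 0 fell with the combination. That was 33.3% of the list, where 15.5% of all genes were called. With either single treatment against PBS, 0 were called by limma, where 5.88% (CpG1668) and 5.98% (doxycycline) of all genes were. The pentose phosphate enzymes that supply NADPH were among them: G6pdx rose from 18.9 ± 1.28 to 28.1 ± 2.97 RPKM (log2 change 0.55, limma adjusted p = 0.00073) and Pgd from 21.1 to 26.3 RPKM (adjusted p = 0.003). Idh1, a cytosolic source of NADPH, rose from 10.4 to 12.3 RPKM (limma adjusted p = 0.0099). Plin2, which coats lipid droplets, rose from 12.8 to 14.9 RPKM (limma adjusted p = 0.0086), and Dgat1, which completes triglycerides, from 3.7 to 4.68 RPKM (adjusted p = 0.013). Tecr, an elongation reductase (30.6 to 34.7 RPKM, limma adjusted p = 0.0072), and Mid1ip1, an activator of acetyl-CoA carboxylase (12.4 to 15.2 RPKM, adjusted p = 0.046), made up the 7, and the call of Mid1ip1 was kept in 7 of 20 alternatives. In the same cells Acaca and Acly were not called and Scd1, Elovl6 and Fads1 fell.

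Cpt2 and Hadhb, of mitochondrial fatty acid oxidation, fell with the combination. They were 2 of 15 tested genes of oxidation (16 listed), or 13.3%, where 15.5% of all genes were called and 6.4% were called lower: Cpt2, a carnitine palmitoyltransferase of mitochondria, from 8.45 to 7.48 RPKM (log2 change -0.16, limma adjusted p = 0.02), and Hadhb, a subunit of the mitochondrial trifunctional protein, from 7.23 to 6.48 RPKM (log2 change -0.14, adjusted p = 0.034). Between CpG1668 and doxycycline the only companion gene called was Elovl7, a fatty acid elongase (log2 change -0.31, limma adjusted p = 0.025). These lists are described by their counts beside the 15.5% of all genes called with the combination, and whether any list differs from other genes was not tested.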

How the data were processed

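RNA of 12 libraries, 3 in each of 4 groups, was analysed. The authors deposited RPKM values for 33531 gene symbols per library. STAR 2.7.9, Partek 7.18.0723 and the build mm10 are listed in the submitters' processing notes, with no step for each. The annotation is not given in the sources used here, nor is the counting. RPKM steps of single-transcript genes gave the depth: at 30460000 to 35040000 reads, 72.2% to 73.4% of these genes lay within 0.05 of a whole read, too few to recover counts.

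The 12167 genes averaging 1 RPKM or more were fitted as log2(RPKM + 1) with limma 3.58.1 in R 4.3.3, with 4 group means and an intensity trend. There were 7 two-sided contrasts, each adjusted by Benjamini-Hochberg and called under 0.05. Positions come from GENCODE M21 (GRCm38). The pipeline was tested on simulated data. The members, lists and tests were chosen with earlier results of these data known. Values in every library are given for called members, regulators except Scap, efflux genes and the most abundant member of each role; other members are given by range. Alternatives covered the pseudocount, filter, scaling, trend, groups fitted, leaving out single libraries, and a block for the replicate number.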

Additional observations from a re-analysis of the deposited data

How the results depend on the processing

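Of 867 values of 44 member changes under the alternatives, 801 kept their side of the threshold, 59 lost a call, 6 gained one and 1 changed sign: Scd2 with CpG1668, which ran from -0.26 without CpG1668 library 3 to 0.003 without CpG1668 library 1. No called change of a member or companion gene changed sign. Counts of called members are small, and moved as follows. With CpG1668 the 1 member called against PBS became 0 with no filter, with quantile normalization, without the trend, with only the groups compared and with a replicate block. With doxycycline the 1 member became 0 with no filter and with a mean RPKM of at least 5, where Elovl6 is not tested. With the combination the 4 members became 2 at a mean RPKM of at least 5, 7 with quantile normalization and 1 with only the groups compared. The 1 member called between the combination and CpG1668 became 0 with no filter, a mean RPKM of at least 5, quantile normalization, only the groups compared and a replicate block, and that between CpG1668 and doxycycline became 0 with no filter, quantile normalization and a replicate block. Over all genes, a mean RPKM of at least 5 gave 455 calls for CpG1668, 382 for doxycycline and 1155 for the combination against PBS, 185 for the combination against CpG1668 and 180 against doxycycline. No filter gave 434 for doxycycline against PBS, 658 for the combination against doxycycline, 102 for CpG1668 against doxycycline and 12 for the interaction. Fitting only the groups compared gave 355 for doxycycline against PBS, 257 for the combination against CpG1668, 216 against doxycycline and 72 for CpG1668 against doxycycline. Quantile normalization moved the higher and lower calls from 480 and 248 to 399 and 318 for doxycycline against PBS. Synthesis minus efflux with CpG1668 was 0.03 above PBS and -0.016 for the fatty acid enzymes alone.

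When single libraries were left out, called members ran from 0 to 1 with CpG1668, 0 to 1 with doxycycline and 0 to 5 with the combination against PBS (0 without PBS library 2, and 1 without PBS library 1 or combination library 3), from 0 to 2 for the combination against CpG1668, from 0 to 0 against doxycycline, from 0 to 1 for CpG1668 against doxycycline and from 0 to 0 for the interaction. Over all genes in that order they ran from 367 to 762, 313 to 774, 1363 to 1906, 133 to 459, 258 to 429, 33 to 236 and 0 to 1. Synthesis minus efflux against PBS ran from 0.003 to 0.039 with CpG1668, from -0.097 to -0.057 with doxycycline and from -0.271 to -0.142 with the combination. Whether same-numbered libraries belong together is not labelled, and the main fit did not pair them. Deviations of same-numbered libraries correlated at -0.207 to 0.268 (across genes), and those of other-numbered libraries at -0.376 to 0.324. Of 12 libraries 3 correlated best with their own number. With the replicate block the called members were 0, 1, 4, 0, 0 and 0 in the 6 pairwise comparisons, and all genes called were 544, 531, 1584, 304, 347 and 78. The cause of these shifts was not tested. A stricter filter or a smaller fit also leaves fewer genes or libraries, and the part of this was not tested either. The filter at a mean RPKM of 1 kept Abca1 and Tm7sf2 out of the main fit. Their lowest values (0.754 and 0.729 RPKM) lay above the 0.086 to 0.098 RPKM of 3 reads at 1 kb.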
